A study of Mus musculus with 2 samples.

Results

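The hypoxia-inducible factor (HIF) genes and BNIP3 receptors examined were Bnip3, Bnip3l, Ankrd37, Egln1, Egln3, Car9, Vegfa, Pdk1, Hif1a and Ndrg1. They were found as the probe sets that carry exactly 1 of these symbols in the annotation of the array, which gave 12 probe sets for all 10 genes, out of 19938 named genes. RNA came from 2 cultures of mouse embryonic stem (ES) cells, both grown with leukemia inhibitory factor on gelatin and both carrying a tetracycline-responsive transgene encoding CTCFL, which is a germ cell paralog of CTCF, tagged with V5 and GFP, together with the rtTA activator at ROSA26. The induced culture received doxycycline for 3 days and was sorted for GFP, and the non-induced culture had neither doxycycline nor sorting. Clones had been selected with G418, and which clone gave the RNA is not given in the sources used here. Each culture was read on 1 Affymetrix Mouse Gene 1.0 ST array, which left no replicates and no possible test, and doxycycline, sorting and CTCFL cannot be told apart.

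HIF is a transcription factor made of an oxygen-regulated alpha subunit and the stable partner ARNT. In the presence of oxygen the prolyl hydroxylases encoded by the Egln genes mark the alpha subunit for destruction through VHL, so that its activity is set mainly at the protein and not at the mRNA. Its targets serve glycolysis, blood vessel growth, pH control and the removal of mitochondria, for which BNIP3 and BNIP3L sit in the outer mitochondrial membrane and bind LC3 proteins of the autophagosome.

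Signals are log2 values per probe set, and differences are induced minus non-induced. Ctcfl, which checks the labels, was at 9.44 in the induced and 5.99 in the non-induced array. All 10 ES cell markers, among them Pou5f1 and Nanog, lay above 8.4 in both arrays. A gene was counted as lower or higher where its log2 difference was at least 1 and its higher value reached 6.36, the median over all gene values and here called the floor. Over all genes 191 were lower (0.958%) and 51 higher (0.256%), and of the 10697 genes that reached the floor 1.79% were lower and 0.477% higher. Centring each array on its median gave 268 lower and 25 higher, and adding a constant of 32 to the linear signals gave 108 and 10.

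Of the 10 genes 3 were lower in the induced array by this size, namely Bnip3, Ankrd37 and Egln3, and 0 were higher. Of the 10, 9 reached the floor. Their median difference was -0.35 and 9 of 10 lay below 0, whereas over all genes the median was 0.01 and 48.6% lay below 0. Over the genes that reached the floor the median was -0.03 and 53.4% lay below 0. In the size of the difference the genes fell into a low group, with Bnip3, Ankrd37 and Egln3 between -2.14 and -1.11 by every probe set, a group of 6 genes between -0.48 and -0.13, and Car9 at 0.81. Nearest to the size were a probe set of Bnip3 at -1.11, inside it, and Car9 at 0.81, outside it and below the floor.

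**Figure D1:**
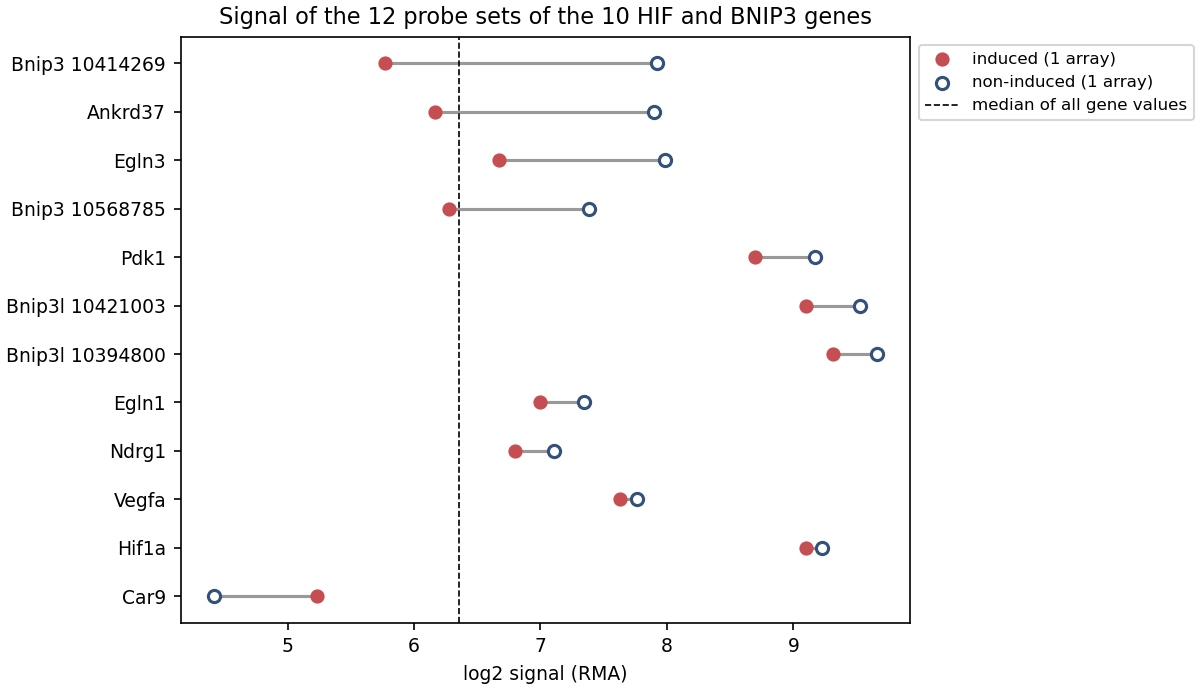
Log2 signal (x axis) of each of the 12 probe sets (y axis) in the induced array (filled) and the non-induced array (open), 1 array each, joined by a line; a dashed line marks the floor (6.36). The widest line is that of Bnip3 probe set 10414269, from 7.92 in the non-induced to 5.77 in the induced array, and Car9 is the 1 gene with the higher value in the induced array.

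Bnip3 was read by 2 probe sets, and both were lower in the induced array. Probe set 10414269 was at 5.77 induced and 7.92 non-induced, a difference of -2.14 or 4.42-fold. Probe set 10568785 was at 6.27 and 7.39, a difference of -1.11 or 2.16-fold. Both started above the floor in the non-induced array and ended below it in the induced array. Among the genes that reached the floor 3 had a difference as low as that of the first probe set, itself included, and 128 were as low as the second. Among the 500 genes closest in mean level 0 were as low as probe set 10414269 and 6 as low as probe set 10568785, and the middle 95% of these genes lay between -0.92 and 0.72 for the first and between -0.85 and 0.76 for the second. With this constant the differences became -1.66 and -0.87, so that the second probe set no longer passed the size.

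The probe sets of Bnip3 differed in where their numbers lie. On this array, probe set numbers run along the chromosomes: 94.3% of neighbouring named probe sets belong to genes of the same chromosome. Bnip3 is on chromosome 7 of GRCm38.p6. Of the 10 named probe sets numbered closest to 10568785, 10 were of genes on chromosome 7. Of the 10 closest to 10414269, 0 were on chromosome 7 and most were on chromosome 14. Probe set 10414269, which gave the wider difference, was also the one that stood for the gene when the probe set with the highest mean was taken, with a mean of 6.85 against 6.83. Over all named probe sets 722 of 21698 lay outside a run of their own chromosome in this way. What sequence these probes read was not examined. The 2.16-fold difference is that of the probe set numbered among the neighbours of the gene. When every gene that had such a probe set was represented by it, Bnip3, Ankrd37 and Egln3 were again the ones of the 10 genes counted as lower. Genes without one kept theirs, and this choice was made after the data were seen.

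The gap between the probe sets of Bnip3 was wide for this array. Their differences lay 1.03 apart on the log2 scale, while the median gap over 993 genes with several probe sets was 0.24, and 7.05% of these genes had a gap at least as wide. Where every probe set of a gene reached the floor (548 genes), the median gap was 0.15 and 3.47% were as wide. Among the 409 genes with probe sets both inside and outside a run of their own chromosome it was 0.12, and 2.69% were as wide.

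**Figure D2:**
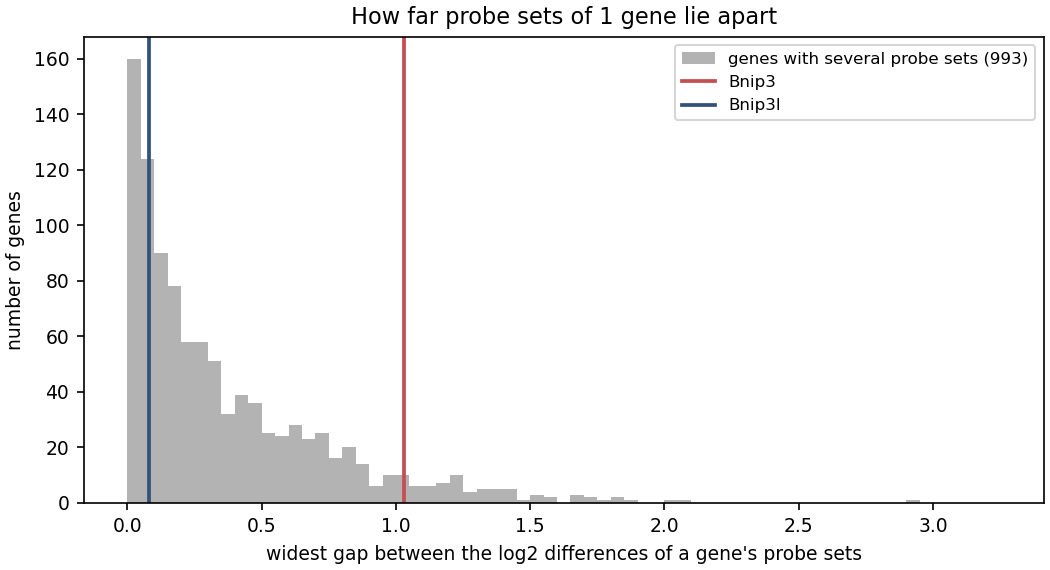
Number of genes (y axis) by the widest gap between the log2 differences of their probe sets (x axis), for 993 genes with several probe sets; vertical lines mark Bnip3 (1.03) and Bnip3l (0.08). Most genes lie near 0, and Bnip3 lies in the right tail.

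Bnip3l, which encodes NIX, the receptor that clears mitochondria from maturing red cells, showed a smaller difference than Bnip3 in each probe set. Probe set 10421003 was at 9.10 and 9.53 (-0.43) and probe set 10394800 at 9.31 and 9.66 (-0.35), 1.35-fold and 1.28-fold lower. The first is numbered within chromosome 14, where the gene lies, and the second within chromosome 12, where RefSeq lists the pseudogene Bnip3l-ps. Unlike those of Bnip3, these probe sets lay only 0.08 apart. Neither passed the size under any of the scalings tried.

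Ankrd37, which encodes a small ankyrin repeat protein and is a direct HIF target, had the widest difference after probe set 10414269 of Bnip3, and a wider one than probe set 10568785. It was at 6.16 induced and 7.90 non-induced, which is a difference of -1.73 or 3.33-fold. Among genes that reached the floor 18 were as low, itself included, and of the 500 genes closest in mean level 1 was. It passed the size under every alternative, between -1.83 and -1.38.

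Among the oxygen sensors, Egln3 stood apart from Egln1 and Egln2. Egln3, which encodes the hydroxylase PHD3 and is itself strongly induced by HIF, was at 6.67 and 7.99, a difference of -1.31 or 2.48-fold. Egln1, which encodes PHD2, the main oxygen sensor for HIF and also a HIF target, was at 6.99 and 7.34 (-0.35). Egln2, which encodes PHD1, was at 8.54 and 8.70 (-0.16). Egln3 had 66 genes as low among those that reached the floor and 1 of the 500 nearest in level, whereas 86 of the 500 genes nearest to Egln1 were as low as Egln1. Differences of Egln3 ranged from -1.41 to -1.09 over the alternatives and those of Egln1 from -0.45 to -0.29.

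The remaining targets differed little. Pdk1, which encodes a kinase that inhibits pyruvate dehydrogenase, was at 8.70 and 9.17 (-0.48). Ndrg1, a stress and differentiation gene, was at 6.80 and 7.11 (-0.31), and Vegfa, the vascular endothelial growth factor, at 7.63 and 7.76 (-0.13). Each of these lay within the middle 95% of the 500 genes nearest in level, and from 78 to 211 of these genes were as low. Car9, which encodes the cell surface carbonic anhydrase IX, went the other way at 5.23 and 4.42 (0.81, 1.76-fold higher), but did not reach the floor in either array. Of the 500 genes nearest to Car9 in level, 17 were as high, and its difference was 0.38 with the constant added.

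Hif1a, the gene of the oxygen-regulated subunit, was at 9.10 and 9.23 (-0.13), and 240 of the 500 genes nearest in level were as low. Its difference stayed between -0.22 and -0.02 over the alternatives.

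**Figure D3:**
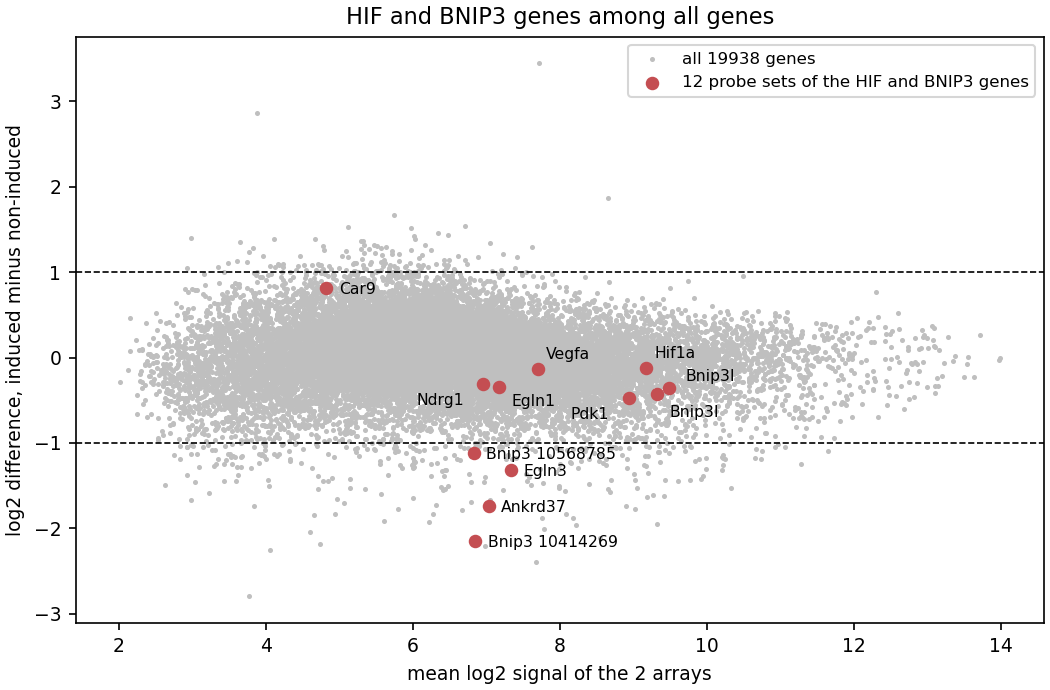
Log2 difference, induced minus non-induced (y axis), against the mean log2 signal of both arrays (x axis) for 19938 genes (grey) and the 12 probe sets (red), with dashed lines at the size of log2 1. Bnip3, Ankrd37 and Egln3 lie below the lower line, the other genes lie between the lines, and the point at 3.45 is Ctcfl.

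The promoters of the genes with the widest differences are shown because HIF binds a short core motif, ACGTG or GCGTG, next to many of its targets. Promoter sequences of RefSeq (GRCm38.p6) were found for 8 of the 10 genes, with 10 start sites, and the 250 bases before each start were searched on both strands. Capitals mark the core motif on either strand (CACGT and CACGC on the other), and the letters CACGTG hold it on both strands at once. Car9 is shown beside the 3 lower genes because it differed in the other direction. The windows are chr7:138909507-138909756 for Bnip3, chr8:45999851-46000100 for Ankrd37 and chr12:54203875-54204124 for Egln3, all on the minus strand, and chr4:43506776-43507025 for Car9 on the plus strand, each read 5′ to 3′ along the gene.
Bnip3: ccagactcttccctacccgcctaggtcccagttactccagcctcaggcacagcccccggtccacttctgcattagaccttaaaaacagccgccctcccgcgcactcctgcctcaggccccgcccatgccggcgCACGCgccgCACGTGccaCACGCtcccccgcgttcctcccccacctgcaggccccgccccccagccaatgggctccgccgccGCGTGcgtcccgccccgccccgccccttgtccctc
Ankrd37: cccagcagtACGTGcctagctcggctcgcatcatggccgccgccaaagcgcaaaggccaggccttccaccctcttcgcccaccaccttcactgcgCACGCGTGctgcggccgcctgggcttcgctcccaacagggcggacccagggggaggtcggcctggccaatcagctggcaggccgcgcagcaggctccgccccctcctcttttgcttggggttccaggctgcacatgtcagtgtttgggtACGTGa
Egln3: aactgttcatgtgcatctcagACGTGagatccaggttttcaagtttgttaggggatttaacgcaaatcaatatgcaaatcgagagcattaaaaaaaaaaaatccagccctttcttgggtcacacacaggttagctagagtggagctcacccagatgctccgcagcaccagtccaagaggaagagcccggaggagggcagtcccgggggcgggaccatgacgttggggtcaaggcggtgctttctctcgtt
Car9: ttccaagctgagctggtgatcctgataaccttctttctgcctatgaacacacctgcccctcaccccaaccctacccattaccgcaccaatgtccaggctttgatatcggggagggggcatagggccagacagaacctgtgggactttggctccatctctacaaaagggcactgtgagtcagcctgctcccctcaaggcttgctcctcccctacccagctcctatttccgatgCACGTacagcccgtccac

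The Bnip3 window held the core motif 5 times, from 117 to 35 bases before the start, with a CACGTG among them. Ankrd37 held it 4 times, the nearest 6 bases before the start. Egln3 held it 1 time, 229 bases before the start, and Car9 1 time, 18 bases before the start. Of the genes that differed little, Hif1a held it 3 times and Egln1 2 times, so the number of motifs overlapped between the lower genes and the others. Of the 10 windows 8 held at least 1 core motif, and of 32841 windows of the same length over all RefSeq promoters 38.6% did, 16.7% at least 2 and 6.58% at least 3. The motif contains CG, and the share of G and C was 72.4% in the Bnip3 window and 67.6% in that of Ankrd37, against a median of 52.4% over all windows. These are matches of letters and not shown to be bound.

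The proteins that control HIF were then compared. Of 17 measured genes of this machinery 0 were lower and 0 higher by log2 1, with a median difference of -0.04 that changed sign between alternatives (-0.14 to 0.03). Of all genes that reached the floor only 1.79% were lower and 0.477% higher. A count of 0 in a list this short, here or in the lists below, therefore does not set the list apart from all genes. Among the other HIF subunits Arnt was at 8.15 and 8.17 (-0.02) and Arnt2 at 7.09 and 6.60 (0.49). Epas1, which encodes HIF-2 alpha, was at 7.78 and 7.84 (-0.05), and Hif3a was below the floor at 5.56 and 5.29. Vhl, the substrate receptor of the ligase that destroys HIF alpha, was at 6.93 and 6.97 (-0.04). Elongin C (Eloc) of the same ligase differed by -0.66, elongin B (Elob) by 0.34, Cul2 by -0.10 and Rbx1 by 0.26. The coactivator genes Crebbp (-0.61) and Ep300 (-0.49) and Hif1an (-0.43), which encodes the asparaginyl hydroxylase FIH, were lower by less than the size, while Cited2, which competes with HIF for these coactivators, was at 9.23 in both arrays.

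Other known HIF targets were mostly below 0. Outside glucose metabolism 39 targets were measured and 27 reached the floor, of which 2 were lower (7.41%, against 1.79% of all genes that reached the floor) and 0 higher. The median was -0.21 (between -0.31 and -0.16 over the alternatives), and 26 of 39 lay below 0 (66.7%, against 48.6% of all genes). Of all genes that reached the floor 53.4% lay below 0. In the HIF machinery and the lists below, cell markers aside, this share ran from 41.7% (paralogs) to 67.7% (core autophagy). A share of this size was therefore not particular to these targets. Kdm3a, an H3K9 demethylase gene, was at 7.55 and 8.63 (-1.08), and Plod2, a collagen lysyl hydroxylase gene, at 6.70 and 7.74 (-1.05). With the constant added these were -0.97 and -0.86, and Kdm3a was at -0.99 after removal of the trend with level, so neither passed the size under all alternatives. Higd1a, a mitochondrial protein gene, followed at -0.67 and the secreted stanniocalcin gene Stc2 at -0.64. The value of Higd1a is that of probe set 10492860, its probe set with the highest mean, and what sequence it reads was not examined. With probe sets of the own chromosome the median of these targets was -0.18. Ppp1r3c, a glycogen regulator picked after its value was seen, was higher by 1.04 but below the floor at 5.41 and 4.37.

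The targets of glucose uptake and glycolysis went both ways. Of 18 measured genes 0 passed the size, 11 lay below 0 and 7 above, and the median of -0.04 changed sign between alternatives. The lactate transporter gene Slc16a3 (-0.56), the glucose transporter gene Slc2a1 (-0.48) and Tpi1 (-0.46) were at the low end, and the aldolase gene Aldoc at the high end (0.55). Paralogs of the 10 genes had a median of 0.08, which also changed sign between alternatives, and 0 of 12 passed the size with the floor. Pdk3 was at -0.29, Pdk2 at -0.03 and Pdk4 at 0.21, against -0.48 for Pdk1. Ndrg2, Ndrg3 and Ndrg4 were at 0.20, 0.05 and 0.16, against -0.31 for Ndrg1. Vegfb was at 0.11 and Vegfc at 0.53. The carbonic anhydrase gene Car4 was at 5.20 and 6.31 (-1.11), just below the floor, and was counted as lower after centring or removal of the trend with level, or when no floor was set.

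**Figure D4:**
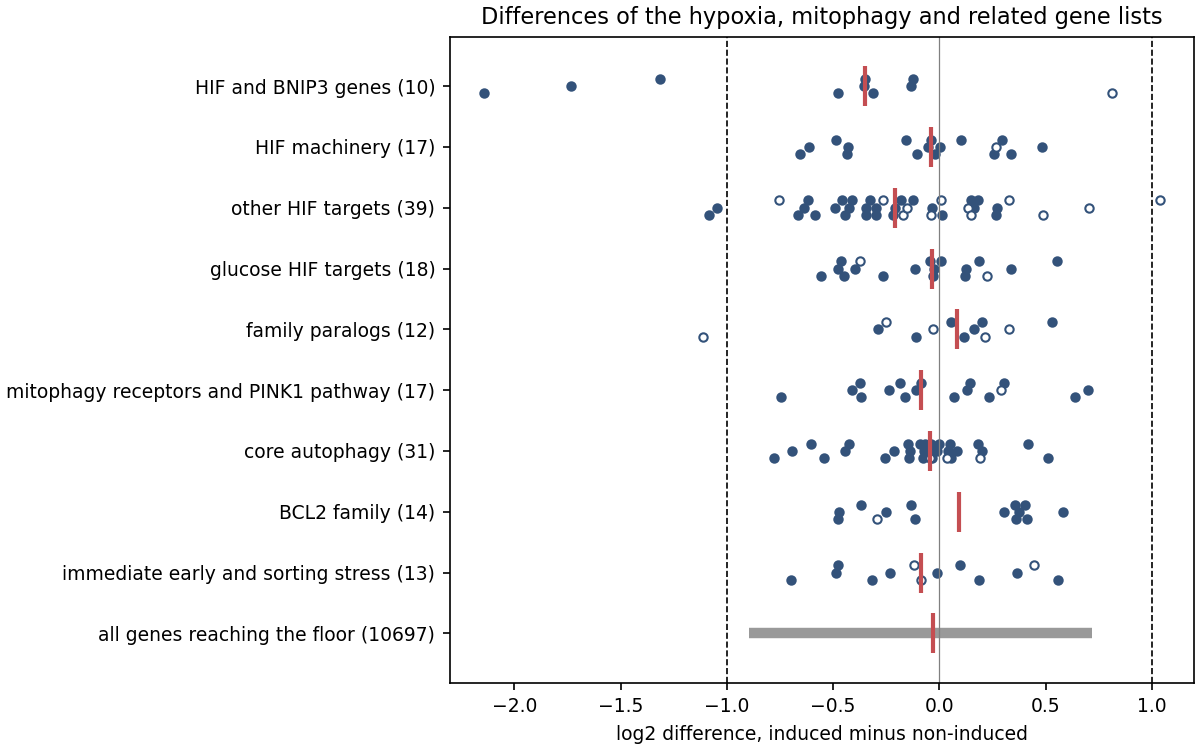
Genes (points) by their log2 difference, induced minus non-induced (x axis), in the lists on the y axis, with the number measured in brackets; filled points reach the floor, open points do not, red bars are medians, dashed lines mark log2 1, and the grey bar spans the middle 95% of the 10697 genes that reached the floor (-0.89 to 0.72). Past the lower line, filled points lie in the list of the 10 genes (3) and in that of other HIF targets (2).

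Mitophagy genes other than Bnip3 did not pass the size. Of 17 measured genes 9 lay below 0 and 8 above, with a median of -0.09 (-0.18 to 0.02 over the alternatives). The receptor genes Fundc1 (-0.24), Bcl2l13 (-0.11), Fkbp8 (0.07) and Phb2 (0.23) differed little. The widest were Usp30, a mitochondrial deubiquitinase gene, at 6.22 and 6.97 (-0.75), the autophagy adaptor gene Sqstm1 at 10.17 and 9.47 (0.70), and Pink1, a kinase that gathers on damaged mitochondria and starts their removal, at 6.78 and 6.14 (0.64). Tmem11, a mitochondrial partner of BNIP3, was at -0.37, and Pptc7, a phosphatase that lowers BNIP3 and NIX, at 0.30.

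Core autophagy genes showed no gene past the size among 31 measured, with a median of -0.04 and 21 of 31 below 0 (67.7%). The conjugation genes Atg5 (-0.78) and Atg3 (-0.69) were lowest, followed by Ambra1 (-0.60) and Rb1cc1 (-0.54). In the BCL2 family, to which BNIP3 is related through its BH3 motif, 0 of 14 passed the size, with Hrk at 0.58, Bak1 at -0.48, Bbc3 at -0.47 and Bcl2l1 at 0.41.

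Genes that respond to handling and genes of other cell types were read because only the induced cells were sorted. Of 13 immediate early and stress genes 0 passed the size, with a median of -0.08, Ier3 at -0.70, Atf3 at 0.56, Fos at -0.49 and Egr1 at -0.48. Of 10 fibroblast markers 9 lay above 0 and 4 reached the floor; their summed linear signal was 766 in the induced and 589 in the non-induced array. The 4 that reached the floor were Thy1 (0.41), Col1a1 (0.42), Col1a2 (0.47) and Col3a1 (0.53), none past the size. Endoderm markers summed to 611 and 577, mesoderm markers to 323 and 279, neural markers to 685 and 611 and trophoblast markers to 681 and 690. Of these, 4 of 8 endoderm, 1 of 5 mesoderm, 2 of 5 neural and 4 of 6 trophoblast markers reached the floor. The other markers in each sum lay below it in both arrays. The part of these cell types in the lower Bnip3, Ankrd37 and Egln3 signal was not tested. In RNA from many cells, sorted (induced) or not (non-induced), fewer cells of a type and less RNA per cell cannot be told apart.

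**Figure D5:**
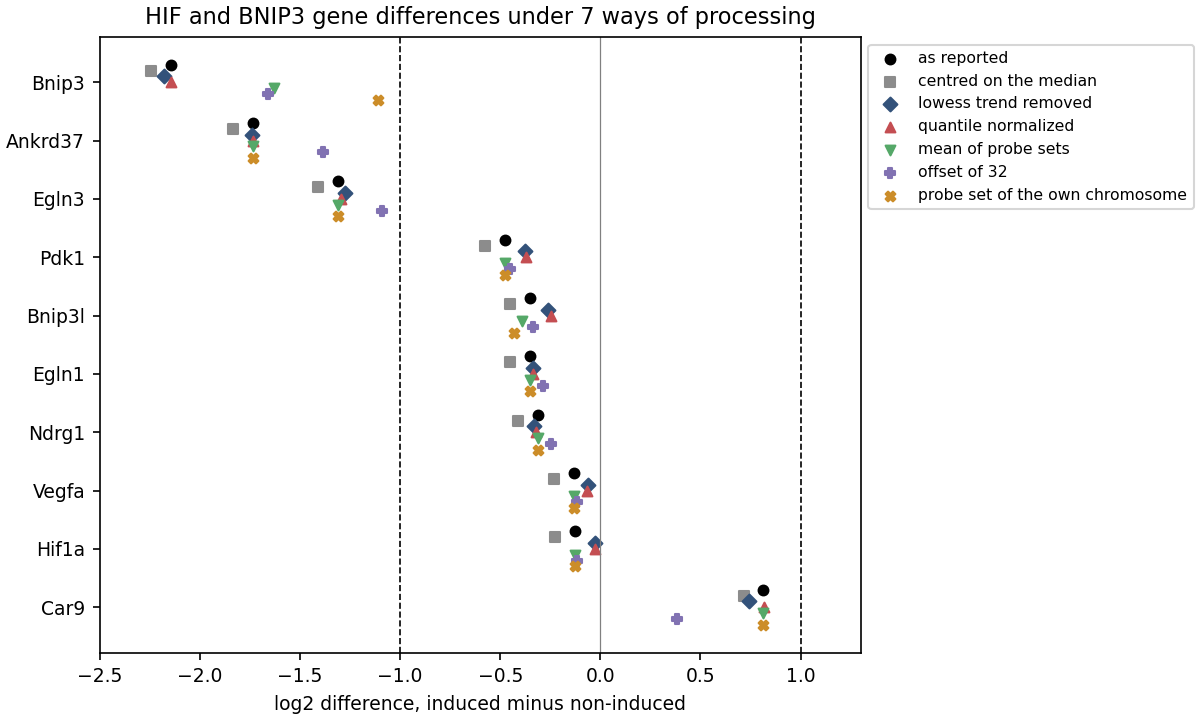
Log2 difference, induced minus non-induced (x axis), of the 10 genes (y axis) as reported and under the 6 alternatives that change values, with dashed lines at log2 1. Bnip3, Ankrd37 and Egln3 lie below -1 under each, and Bnip3 spans the widest range, from -2.24 after centring to -1.11 by the probe set numbered within its own chromosome.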

How the data were processed

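From each culture 300 ng of total RNA was biotin-labelled and hybridized to Affymetrix Mouse Gene 1.0 ST arrays. The deposited values are log2 signals, 1 per probe set and array (1.36 to 14.5). They were made by the authors with RMA, which can compress differences of dim genes, and quantile normalization. For software versions and the annotation build, nothing was given in the sources used here. Precision is limited by having 1 array per group.

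Groups came from the sample labels. Of 35557 probe sets, 21789 had 1 gene symbol in the platform annotation, 1621 several and 12147 none; only the first entered. Of these, 21698 were matched by gene identifier to RefSeq (GRCm38.p6) for current symbols and chromosomes. A gene was represented by its probe set with the highest mean. For genes outside the 10, where the number of that probe set lies is not reported. Probe set runs were read from the 10 nearest numbered named probe sets.

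The genes, lists, size and floor were chosen with earlier results of these data known. The 10 genes were all named; genes of the HIF machinery, paralog and mitophagy lists could be named, and a part of them is; from every other list those past the size and the 4 widest above the floor were named. Ppp1r3c and markers of ES cells and fibroblasts were named outside this rule. The rule also asked for the genes nearest to Bnip3 in signal. For probe set 10414269 these were Snora2b, Zfp935 and Efcab10, and for probe set 10568785 Capsl, Zfp160 and Echdc1. Levels of different probe sets cannot be compared as amounts of RNA. The same limit holds for the floor, the choice of probe set by highest mean and the comparisons with genes closest in mean level. Some of the listed genes are not reported here, and counts are over the measured ones. Alternatives were median centring, lowess (fraction 0.3), quantile normalization, the mean of probe sets, a constant of 32, a size of log2 0.58, no floor and a floor at the 75th percentile; probe sets of the own chromosome were added after the data were seen. The calling step was tested on simulated data. Python 3.11.15, numpy 2.4.6, pandas 2.3.3, statsmodels 0.14.6 and matplotlib 3.10.9 were used.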

Additional observations from a re-analysis of the deposited data

How the results depend on the processing

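Bnip3, Ankrd37 and Egln3 were counted as lower, 9 of the 10 genes lay below 0, and 0 were higher, under each of the 9 alternatives. The median of the 10 genes ranged from -0.45 to -0.31. Bnip3 probe set 10568785 was at -0.87 with the constant of 32 and, at -1.11, below a floor at the 75th percentile, so that it was not counted there; probe set 10414269 was counted under each alternative it was run in, between -2.24 and -1.66.

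Counts over all genes moved more, from 191 lower and 51 higher. They were 108 lower and 10 higher with the constant, 904 and 568 at a size of log2 0.58, and 297 and 141 without a floor. Higher genes were 25 after centring and 8 with a floor at the 75th percentile. These moves follow in part from the definitions. A smaller size or no floor can only add genes, and a higher floor can only remove them. The constant shrinks every log2 difference. Centring lowered every difference, and the median over all genes went from 0.01 to -0.09. No other cause was tested. No replicate could be left out. No paired analysis was possible because there was 1 array per group. Signal near or below the floor limits what can be read for Car9 and for Bnip3 in the induced array.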
